A study of Mus musculus with 8 samples.

Results

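The 10 genes described here carry out or control antigen receptor gene assembly and early B cell development: Dntt, Rag1, Rag2, Igll1, Vpreb1, Vpreb3, Ebf1, Pax5, Cd79a and Cd79b. They were chosen by name among 46113 gene IDs, of which 21991 had annotated exons, and each of the 10 had exons and a row of its own. Their exon and intron reads were taken from RNA-seq libraries of 2 cell fractions sorted from bone marrow of C57BL/6 mice aged 8 to 10 weeks. The HSC fraction (hematopoietic stem cells) was gated as lineage-negative, Sca1+, c-Kit+, CD150+ and CD34-. The HPC fraction (hematopoietic progenitor cells) carried the same lineage, Sca1, c-Kit and CD150 gates but was CD34+. Each fraction had 4 libraries, the labels name no genetic change or treatment, and the protocol states 5000 sorted cells but speaks of HSC alone. The source label reads hematopoietic stem cells for the HPC samples too, so the groups follow the titles, which match the cell type and marker labels. The labels do not state whether the libraries of a fraction were made from different animals. The p-values therefore refer to the spread among these samples, and that spread may be technical.

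In developing lymphocytes the RAG1 and RAG2 proteins together cut DNA at the borders of V, D and J gene segments, and terminal deoxynucleotidyl transferase, the product of Dntt, adds nucleotides without a template before the ends are joined. A successfully joined immunoglobulin heavy chain then pairs with the surrogate light chain, made of the Igll1 (lambda 5) and Vpreb1 proteins. The pair signals through the CD79A and CD79B chains (Ig-alpha and Ig-beta). The transcription factors EBF1 and PAX5 switch on and fix the B lineage program, while Dntt and the Rag genes can already be transcribed in multipotent progenitors with lymphoid potential.

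Exon reads per library numbered 16291733 to 19070313 for HSC and 18223082 to 20564901 for HPC. Intron reads were 22.0% to 25.9% of gene reads in HSC and 22.3% to 26.5% in HPC. Genes with any exon read numbered 14222 to 15041 in the HSC libraries and 14008 to 14141 in the HPC libraries. Every HSC library thus had more such genes than any HPC library. Whether this bears on genes with few reads was not tested. Levels below are in CPM, exon reads scaled to library size by TMM, unless stated otherwise. A count of 0 allows a level of up to 3 reads, which is 0.151 to 0.179 CPM for HSC and 0.149 to 0.167 CPM for HPC. This limit covers counting error only because PCR copies were counted as reads. Cd34 went with the gate, at 120 ± 15.4 CPM for HSC and 1276 ± 55.9 CPM for HPC (SD, n = 4 each). Slamf1, which encodes CD150, was at 37.6 ± 6.02 CPM for HSC and 3.14 ± 0.736 CPM for HPC, although both fractions are labelled CD150+. Of the 6 genes of the sort and related surface markers, Slamf1 and Ly6a were called higher in HSC, Cd34, Flt3 and Cd48 lower, and Kit was not called.

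The 10 genes did not move as a block. The recombination genes Dntt, Rag1 and Rag2 were lower in HSC than in HPC, while Igll1, Vpreb1, Vpreb3 and Cd79a were higher in HSC, at low levels in both fractions. The Vpreb1 call was close to the threshold, with CPM ranges that overlapped, and 10 of 18 alternative settings lost it. Ebf1 and Cd79b did not pass the test, and Pax5 had too few exon reads to be tested. Of the 9 genes tested on exon reads, 4 were called higher and 3 lower in HSC by edgeR's quasi-likelihood test (threshold 0.05 after Benjamini-Hochberg adjustment over 12751 genes). Among all genes tested the same rule called 37.1%, with 19.6% higher and 17.6% lower in HSC, and the median log2 change (HSC over HPC) of all genes tested was 0.00. The CPM ranges of the fractions did not overlap for 6 of the 10 genes, 3 in each direction, against 36.7% of all genes tested. In sorted bulk samples, fewer cells that make a transcript and less transcript per cell cannot be told apart.

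**Figure D1:**
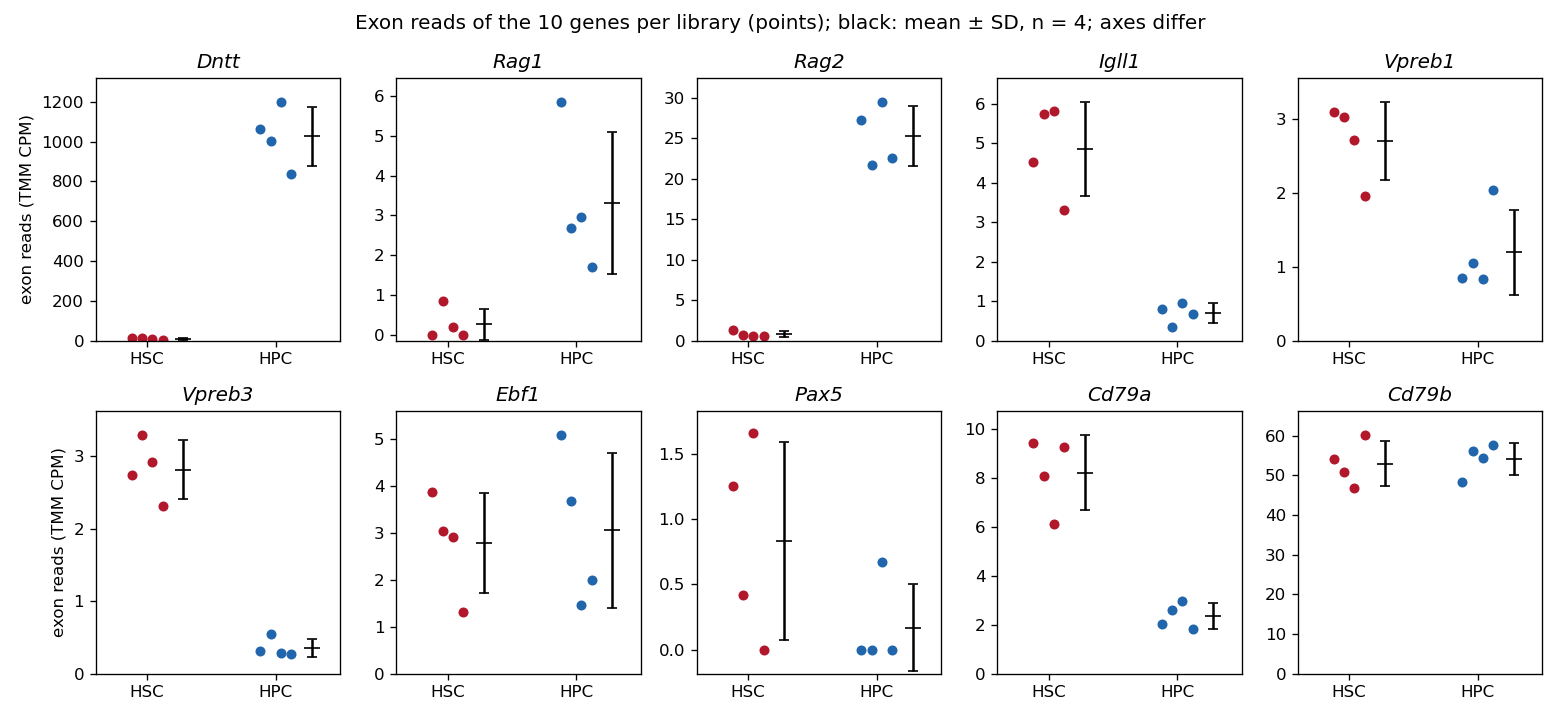
Exon reads of the 10 genes in each library, in TMM-normalised CPM, with HSC left of HPC and black bars for the mean ± SD of 4 libraries; the vertical axes differ between panels. Dntt, Rag1 and Rag2 sit low in all HSC libraries, Igll1, Vpreb3 and Cd79a sit low in all HPC libraries, and the fractions overlap for Vpreb1, Ebf1, Pax5 and Cd79b.

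RefSeq promoter windows (GRCm38.p6, the build of the deposited positions) were found for 9 of the 10 genes, and 5 are printed so that the start sites of the gene that differed most, of a recombinase gene and of 3 B lineage genes that moved the other way can be read side by side. Each window holds 300 bases, 250 before and 50 after the start site, 5′ to 3′ on the gene's strand. Capitals mark matches, on either strand, to 4 motifs: EBF-type CCCNNGGG, E-box CAGGTG, palindromic E-box CAGCTG and Ikaros-type TGGGAA. The windows lie at chr19:41029025-41029324, plus strand for Dntt, chr2:101649483-101649782, minus strand for Rag1, chr16:16863936-16864235, minus strand for Igll1, chr16:16869206-16869505, minus strand for Vpreb1 and chr7:24897247-24897546, plus strand for Cd79a.
Dntt: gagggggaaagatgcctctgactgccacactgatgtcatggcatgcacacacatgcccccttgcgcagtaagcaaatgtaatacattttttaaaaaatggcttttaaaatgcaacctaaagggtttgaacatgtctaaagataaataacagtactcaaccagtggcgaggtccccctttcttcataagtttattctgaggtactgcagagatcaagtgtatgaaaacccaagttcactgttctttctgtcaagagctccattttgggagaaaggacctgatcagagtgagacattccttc
Rag1: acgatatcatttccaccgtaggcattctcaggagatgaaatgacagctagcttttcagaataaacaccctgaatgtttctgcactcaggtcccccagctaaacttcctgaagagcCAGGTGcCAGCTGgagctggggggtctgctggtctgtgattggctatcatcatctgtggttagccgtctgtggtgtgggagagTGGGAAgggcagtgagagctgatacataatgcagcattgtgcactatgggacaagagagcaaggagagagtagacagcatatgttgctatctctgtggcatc
Igll1: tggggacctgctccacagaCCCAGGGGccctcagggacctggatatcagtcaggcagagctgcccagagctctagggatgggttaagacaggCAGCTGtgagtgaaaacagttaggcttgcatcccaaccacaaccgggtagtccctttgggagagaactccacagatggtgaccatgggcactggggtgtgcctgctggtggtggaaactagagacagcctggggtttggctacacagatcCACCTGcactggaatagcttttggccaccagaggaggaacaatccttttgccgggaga
Vpreb1: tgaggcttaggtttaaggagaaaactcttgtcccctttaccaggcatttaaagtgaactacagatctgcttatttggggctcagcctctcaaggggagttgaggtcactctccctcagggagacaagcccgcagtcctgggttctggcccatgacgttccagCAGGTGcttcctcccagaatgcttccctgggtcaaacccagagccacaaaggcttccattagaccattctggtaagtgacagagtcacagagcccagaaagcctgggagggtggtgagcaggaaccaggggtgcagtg
Cd79a: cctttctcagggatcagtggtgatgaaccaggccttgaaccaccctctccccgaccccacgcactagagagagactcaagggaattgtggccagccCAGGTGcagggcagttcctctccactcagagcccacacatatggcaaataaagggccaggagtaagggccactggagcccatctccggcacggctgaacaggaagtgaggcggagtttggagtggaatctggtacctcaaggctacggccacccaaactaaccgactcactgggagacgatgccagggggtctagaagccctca
The E-box CAGGTG was present in 4 of the 9 genes' windows, those of Rag1, Igll1, Vpreb1 and Cd79a, and in 20.2% of 32841 promoter windows of the same length. CAGCTG was present for Rag1 and Igll1 (16.3% of all windows), TGGGAA for Rag1 and for the downstream window of Ebf1 (25.6%), and CCCNNGGG for Igll1 alone among the 9 (13.7%). Rag1, lower in HSC, and Igll1, higher in HSC, thus shared 2 of the 4 motifs, while the Dntt window held no match. A match is a description of the sequence, not evidence of a bound site.

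Dntt, the terminal transferase gene (NCBI gene 21673, chromosome 19, 41029275 to 41059525, plus strand, 12 exons, mm10), showed the greatest change of the 10. Its level was 10.7, 11.7, 5.73 and 5.17 CPM in the HSC libraries, against 1066, 1003, 1199 and 839 CPM in the HPC libraries. The fractions lay far apart, and HSC replicates 1 and 2 held about the same amount while replicates 3 and 4 were lower. The means were 8.31 ± 3.33 CPM for HSC and 1027 ± 150 CPM for HPC (SD, n = 4 each), 124-fold lower in HSC, with a log2 change of −6.95 ± 0.26 (SE; adjusted p = 1.4e-10, edgeR). Reads that crossed an exon-exon junction made up 67.1% of its exon reads in HSC and 67.0% in HPC, nearly the same share.

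Rag1 and Rag2, the subunits of the recombinase, lie next to each other on chromosome 2 on opposite strands, 5723 bases apart (Rag1 at 101638252 to 101649532 on the minus strand, Rag2 at 101624748 to 101632528 on the plus strand). Rag1 had 0, 16, 4 and 0 exon reads in the HSC libraries, against 111, 54, 53 and 31 in the HPC libraries. Every HPC library was above every HSC library, and HSC replicates 1 and 4 held no read. Rag1 stood at 0.259 ± 0.396 CPM for HSC and 3.30 ± 1.79 CPM for HPC (SD, n = 4 each), and its log2 change was −3.61 ± 0.85 (SE; adjusted p = 0.0037, edgeR). Without HSC replicate 2, which held most of the HSC reads, the log2 change was −5.42.

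Rag2 was more abundant than Rag1 and its libraries were closer together. It had 22, 14, 12 and 11 exon reads in HSC, against 515, 438, 529 and 409 in HPC. The HSC libraries all held some Rag2 reads, far fewer than any HPC library. The means were 0.807 ± 0.343 CPM for HSC and 25.3 ± 3.70 CPM for HPC (SD, n = 4 each), 31.3-fold lower in HSC (log2 −4.98 ± 0.27, SE; adjusted p = 4.5e-09, edgeR). Per length, the ratio of Rag2 to Rag1 in RPKM (reads scaled to exon length and to mapped library size) was 1.58 and 5.43 in HSC replicates 2 and 3, and it was not defined in HSC replicates 1 and 4, where Rag1 had no read. The ratio was 8.39, 14.7, 18.1 and 23.9 in the HPC libraries. With 20 Rag1 reads in all over the HSC libraries, no ratio of means is given for HSC.

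The Rag2 locus also holds B230118H07Rik, an overlapping gene of 10 exons on the minus strand. Its exon and intron reads together were at 27.5 ± 2.76 CPM for HSC and 39.5 ± 3.72 CPM for HPC (SD, n = 4 each; log2 −0.63 ± 0.13, SE; adjusted p = 0.0018 from edgeR in a fit of gene reads that called 32.5% of 16704 genes). Whether reads were counted by strand is not given in the sources used here, so reads from the overlap cannot be assigned to either gene with certainty. Traf6, the neighbour on the far side of Rag1, which encodes a ubiquitin ligase of innate immune signalling, was at 33.1 ± 8.56 CPM for HSC and 34.7 ± 7.36 CPM for HPC and was not called (edgeR adjusted p = 0.81).

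Igll1 and Vpreb3, and less securely Vpreb1, were higher in HSC, the opposite direction from the recombination genes. Igll1 (NCBI gene 16136, chromosome 16, 16860671 to 16863985, minus strand), which encodes lambda 5, had 76, 110, 116 and 63 exon reads in the HSC libraries, against 15, 7, 17 and 12 in the HPC libraries. The lowest HSC library was well above the highest HPC library. Igll1 averaged 4.86 ± 1.19 CPM for HSC and 0.688 ± 0.255 CPM for HPC (SD, n = 4 each), 7.07-fold higher in HSC, with a log2 change of 2.82 ± 0.43 (SE; adjusted p = 0.00011, edgeR). All of its exon reads were uniquely placed.

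Vpreb3, which encodes a protein of the same family that binds newly made immunoglobulin chains, had 46, 63, 58 and 44 exon reads in HSC, against 6, 11, 5 and 5 in HPC. The fractions did not overlap, and HPC replicate 2 stood above the other HPC libraries. It averaged 2.82 ± 0.404 CPM for HSC and 0.355 ± 0.129 CPM for HPC (SD, n = 4 each), 7.95-fold higher in HSC (log2 2.96 ± 0.47, SE; adjusted p = 0.00018, edgeR). Vpreb3 lies on another chromosome than Igll1 and Vpreb1 (NCBI gene 22364, chromosome 10, 75948312 to 75949648, plus strand).

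Vpreb1, the partner of lambda 5 in the surrogate light chain, lies 4415 bases from Igll1 on the same strand (chromosome 16, 16868401 to 16869255) and showed a smaller and less secure change. It had 52, 58, 54 and 37 exon reads in HSC, against 16, 21, 15 and 37 in HPC. HSC replicate 4 and HPC replicate 4 held the same number of reads, so the fractions overlapped. The means were 2.70 ± 0.526 CPM for HSC and 1.19 ± 0.576 CPM for HPC (SD, n = 4 each; log2 1.18 ± 0.44, SE; adjusted p = 0.049, edgeR). The call was lost when any library other than HPC replicate 4 was left out, with log2 changes of 1.03 to 1.56 and adjusted p-values of 0.020 to 0.12 over the 8 omissions.

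Vpreb1 has a near copy, Vpreb2, with 97.4% identical transcript bases (739 identical positions, 20 mismatches and 7 gaps). Vpreb2 had 18 exon reads over the HSC libraries and 22 over the HPC libraries, of which 37.5% were uniquely placed, against 93.4% for Vpreb1. The split of reads between both copies is therefore uncertain, but Vpreb2 held few reads in either fraction. Top3b, a DNA topoisomerase gene 1456 bases from Vpreb1 on the opposite strand, moved the other way, at 75.2 ± 4.60 CPM for HSC and 104 ± 5.18 CPM for HPC (log2 −0.46 ± 0.09, SE; adjusted p = 0.00097, edgeR). Spag6l, the neighbour of Igll1 on its other side, was at 1.61 ± 0.772 CPM for HSC and 1.03 ± 0.546 CPM for HPC and was not called (edgeR adjusted p = 0.43).

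The transcription factors that define the B lineage were at low levels in both fractions and did not pass a test. Ebf1 (NCBI gene 13591, chromosome 11, 44618100 to 45008096) had 65, 58, 58 and 25 exon reads in HSC, against 96, 74, 26 and 36 in HPC. The ranges of the fractions overlapped widely. The means were 2.79 ± 1.07 CPM for HSC and 3.05 ± 1.65 CPM for HPC (SD, n = 4 each), with a log2 change of −0.13 ± 0.46 (SE; adjusted p = 0.85, edgeR), whose sign was not stable under other settings. Pax5 (NCBI gene 18507, chromosome 4, 44526269 to 44710440) had 21, 8, 33 and 0 exon reads in HSC, against 0, 0, 12 and 0 in HPC. Pax5 was thus present in 3 of 4 HSC libraries and 1 of 4 HPC libraries, with ranges that overlapped. An exact two-sided permutation test of its CPM gave p = 0.257, where 4 against 4 libraries can reach 0.0286.

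The signal chains of the B cell receptor parted from each other. Cd79a (NCBI gene 12518, chromosome 7, 24897511 to 24902197), which encodes Ig-alpha, had 158, 154, 121 and 175 exon reads in HSC, against 38, 52, 53 and 33 in HPC. All HSC libraries were above all HPC libraries. The means were 8.20 ± 1.53 CPM for HSC and 2.34 ± 0.521 CPM for HPC (SD, n = 4 each), 3.50-fold higher in HSC (log2 1.80 ± 0.28, SE; adjusted p = 0.00014, edgeR). Arhgef1, a gene that begins 719 bases beyond Cd79a on the same strand, was at 217 ± 14.5 CPM for HSC and 334 ± 35.7 CPM for HPC, lower in HSC (log2 −0.63 ± 0.10, SE; adjusted p = 0.00015, edgeR).

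Cd79b (NCBI gene 15985, chromosome 11, 106311341 to 106314562), which encodes Ig-beta, was well expressed in both fractions. It stood at 54.2, 50.9, 46.8 and 60.1 CPM in HSC, against 48.3, 56.1, 54.4 and 57.6 CPM in HPC. The libraries of both fractions were interleaved. The log2 change was −0.03 ± 0.11 (SE; adjusted p = 0.86, edgeR), with means of 53.0 ± 5.64 CPM for HSC and 54.1 ± 4.11 CPM for HPC (SD, n = 4 each). Per length, Cd79b exceeded Cd79a by 6.98-fold in HSC and 24.9-fold in HPC (ratios of mean RPKM).

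Ordered by deposited RPKM, which is scaled to exon length, the 10 genes ranked differently in each fraction. In HSC, Cd79b led at 32.2 ± 3.37 RPKM (SD, n = 4), apart from all that followed. Cd79a at 4.61 ± 0.806, Igll1 at 4.18 ± 1.04, Vpreb3 at 3.49 ± 0.487, Dntt at 2.90 ± 1.11 and Vpreb1 at 2.62 ± 0.481 RPKM overlapped each with the next. A gap parted Vpreb1 from Ebf1 (0.366 ± 0.136), Rag2 (0.161 ± 0.0650), Pax5 (0.0775 ± 0.0715) and Rag1 (0.0286 ± 0.0433 RPKM), whose neighbours overlapped.

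In HPC, Dntt led at 345 ± 49.5 RPKM (SD, n = 4), rank 152 of 21991 genes with exons, followed by Cd79b at 31.4 ± 2.12 and Rag2 at 4.84 ± 0.687 RPKM, each apart from the next. Cd79a at 1.26 ± 0.272, Vpreb1 at 1.11 ± 0.523, Igll1 at 0.564 ± 0.205, Vpreb3 at 0.421 ± 0.159, Ebf1 at 0.387 ± 0.216 and Rag1 at 0.352 ± 0.196 RPKM overlapped each with the next, and Pax5 came last at 0.0146 ± 0.0291. Within the surrogate light chain, the ratio of Igll1 to Vpreb1 was 1.29 to 1.90 in the HSC libraries and 0.828, 0.294 and 0.286 in HPC replicates 1, 2 and 4, with HPC replicate 3 close to 1. The ratio of Vpreb3 to Vpreb1 was 1.12 to 1.51 in HSC and 0.172 to 0.666 in HPC.

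**Figure D2:**
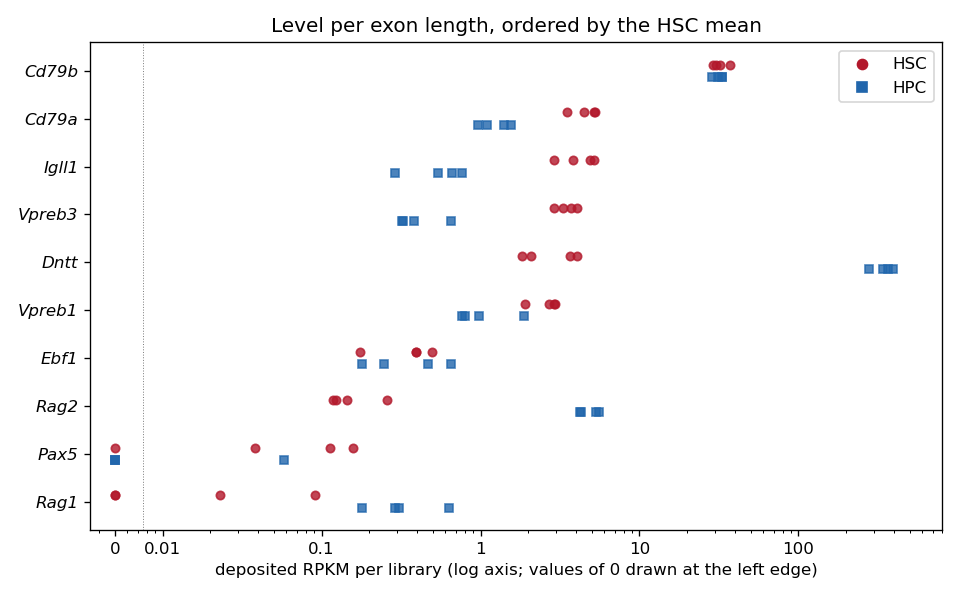
Deposited RPKM of the 10 genes in each library on a log axis, HSC as red circles above HPC as blue squares, with genes ordered down the page by their HSC mean and values of 0 drawn at the left edge. Cd79b leads in HSC at a mean of 32.2 RPKM, while in HPC Dntt leads at 345 RPKM and Cd79b follows at 31.4 RPKM.

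Intron reads, which come mostly from unspliced RNA, gave a reading of the same genes that exon reads did not use. Of the 7 genes with enough intron reads to test, 1 was called lower in HSC (Dntt) and 0 higher. Over all 15142 genes tested on intron reads, 20.2% were called, 10.8% higher and 9.43% lower in HSC (edgeR, the same threshold). At an unadjusted p under 0.05 edgeR gave 1 gene higher (Igll1), and DESeq2 and voom with quality weights called 0 higher. Dntt introns held 30, 26, 3 and 14 reads in HSC, against 1537, 1596, 2107 and 1029 in HPC. Its intron reads were low in every HSC library, as its exon reads were, with a log2 change of −6.42 ± 0.39 (SE; adjusted p = 1.0e-07, edgeR).

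Igll1 introns held 26, 28, 42 and 21 reads in HSC, against 19, 8, 10 and 1 in HPC. The fractions did not overlap, as for 24.4% of all genes tested on intron reads, but the spread in HPC was wide and the log2 change of 1.58 ± 0.63 missed the threshold (SE; adjusted p = 0.099, edgeR). Without HPC replicate 1 it was 2.18 with an adjusted p of 0.044. Vpreb1 introns gave a log2 change of 1.46 ± 0.71 (adjusted p = 0.18) and Pax5 introns 1.32 ± 0.77 (adjusted p = 0.27), both with overlapping fractions. Pax5 introns held 43, 23, 19 and 1 reads in HSC, against 3, 11, 11 and 8 in HPC. The Pax5 locus overlaps Mir5120 on its own strand and LOC102632357 and 5730488B01Rik on the opposite strand. Reads of these genes may be counted in Pax5 introns. Vpreb1's intron is only 87 bases long, so reads counted there may also cover exon sequence.

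The introns of Ebf1, Cd79a and Cd79b were not called either. Ebf1 introns held 137, 138, 100 and 43 reads in HSC, against 137, 119, 110 and 57 in HPC, a log2 change of −0.06 ± 0.33 (SE; adjusted p = 0.93, edgeR). Cd79b introns gave −0.51 ± 0.29 (adjusted p = 0.27). Cd79a introns held 15, 14, 19 and 0 reads in HSC, against 8, 14, 10 and 8 in HPC (log2 0.18 ± 0.76, SE; adjusted p = 0.90, edgeR), so the exon excess of Cd79a in HSC had no called counterpart in its introns. Rag1, Rag2 and Vpreb3 introns held 2, 0 and 33 reads over the HSC libraries and 18, 14 and 28 over the HPC libraries, too few to test.

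**Figure D3:**
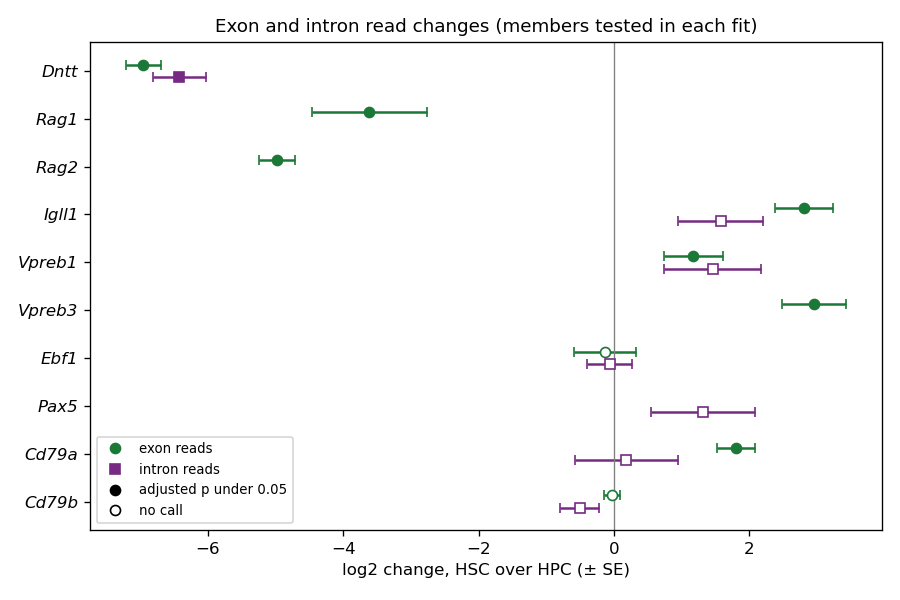
Log2 change, HSC over HPC, of exon reads (green circles) and intron reads (purple squares) with SE, for the genes tested in each fit; filled symbols passed an adjusted p of 0.05. Dntt is lower in HSC on both kinds of read, at −6.95 and −6.42, while Cd79a is higher on exon reads (1.80) with an intron change of 0.18.

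The difference between exon and intron change was tested in its own fit, with reads of a library paired, for the 6 genes that had enough of both. None of the 6 was called (edgeR quasi-likelihood test), against 1.83% of 11449 genes tested (1.21% with the exon change higher, 0.629% lower), and 1, Cd79a, had an unadjusted p under 0.05. Cd79a gave a difference in log2 change (exon minus intron) of 1.72 ± 0.80 (SE; adjusted p = 0.41, edgeR). Igll1 gave 1.08 ± 0.70 (adjusted p = 0.60), Cd79b 0.51 ± 0.26 (0.47) and Dntt −0.47 ± 0.30 (0.60). For Cd79a, intron reads summed over libraries were 7.32% of its exon and intron reads in HSC and 18.5% in HPC. Per library they were 0% to 13.6% in HSC and 15.9% to 21.2% in HPC. For Vpreb3, which was not in that fit, they were 4.17% to 21.4% in HSC and 25.0% to 66.7% in HPC. The HPC shares of Vpreb3 rest on 2, 14, 10 and 2 intron reads beside 6, 11, 5 and 5 exon reads. The shares of the other members overlapped between the fractions, and no share was tested.

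The genes differed in where their reads fell. Over all 8 libraries, reads across exon-exon junctions made up 61.9% of Dntt's exon and intron reads and 52.6% of those of Cd79a, but 2.42% for Rag1 and 6.36% for Rag2, whose coding sequence lies in a single exon. Introns took 65.8% of the reads of Ebf1 and 61.7% of those of Pax5, the longest of the 10 genes, with introns of 384329 and 176128 bases in sum. Vpreb1's intron of 87 bases held 89 reads, or 1023 reads per kilobase, against 378 per kilobase in its exons. Reads counted in so short an intron may also cover exon sequence, so these densities cannot be compared directly.

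**Figure D4:**
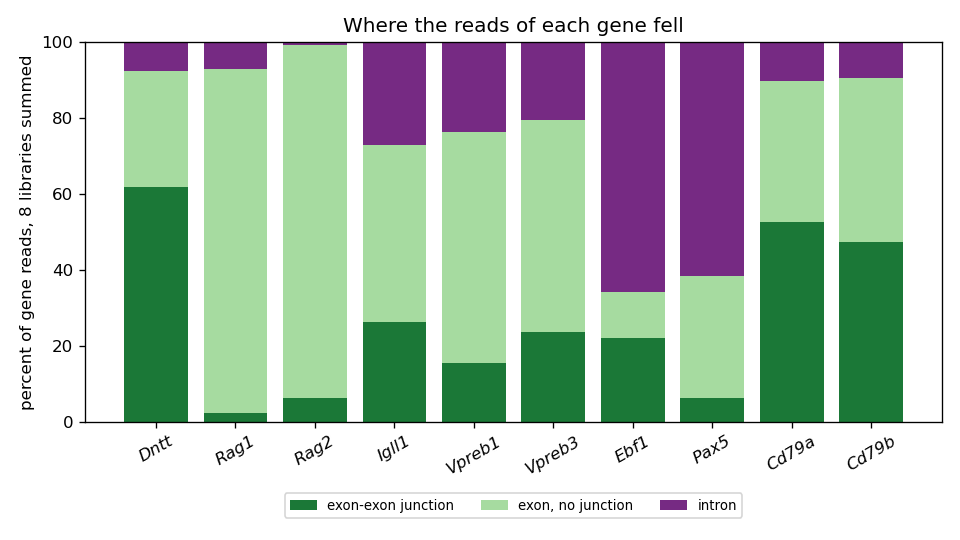
Share of each gene's reads across exon-exon junctions (dark green), within exons (light green) and in introns (purple), in percent of its exon and intron reads, with the reads of all 8 libraries summed. Introns hold most of the Ebf1 (65.8%) and Pax5 (61.7%) reads, junction reads are most of Dntt (61.9%), and Rag1 and Rag2 lie almost wholly within exons.

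Neighbours of the other genes were read for comparison. Blnk, which encodes an adaptor of pre-B cell receptor signalling and lies 34739 bases from Dntt, was at 3.73 ± 1.23 CPM for HSC and 9.20 ± 3.71 CPM for HPC (log2 −1.30 ± 0.33, SE; adjusted p = 0.0058, edgeR). Tll2, on the other side of Dntt, was at 1.18 ± 0.503 CPM for HSC and 0.471 ± 0.210 CPM for HPC and was not called (edgeR adjusted p = 0.081). Melk, a kinase gene beside Pax5, was lower in HSC (15.0 ± 3.29 CPM for HSC and 36.8 ± 5.28 CPM for HPC, edgeR adjusted p = 3.4e-05). The other neighbours tested, Zcchc7, Rps19, Rnf145, Clint1, Gm5134 and Tcam1, were not called.

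The partners of the recombinase, which help it to cut or repair its cuts, are made in most cells. For this and each list that follows, the shares over all genes tested were 19.6% higher and 17.6% lower in HSC. Of 18 such genes, all tested, 1 was higher in HSC, 8 were lower and 9 were not called, with a median log2 change of −0.30. Hmgb1 and Hmgb2 were among the 8 lower genes. H2ax, a histone variant marked at DNA breaks, was at 141 ± 13.6 CPM for HSC and 320 ± 22.8 CPM for HPC (log2 −1.19 ± 0.10, SE; adjusted p = 2.9e-07, edgeR). Xrcc6, which encodes the Ku70 end-binding protein, was at 113 ± 5.17 CPM for HSC and 192 ± 5.96 CPM for HPC (log2 −0.76 ± 0.08; adjusted p = 4.4e-06), and Hmgb2, a DNA-bending cofactor of RAG cutting, gave −0.96 ± 0.11 (1.0e-05). The gene that was higher, Polm, named after its values were seen, encodes the polymerase closest to terminal transferase and was at 6.87 ± 0.843 CPM for HSC and 1.77 ± 0.753 CPM for HPC (log2 1.95 ± 0.33, SE; adjusted p = 0.00032, edgeR). Polm and Dntt thus lay on opposite sides of 0. The count of lower genes was 4 without HSC replicate 2 and 5 without HSC replicate 3.

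Transcription factors of the early B lineage were split. Of 23, all tested, 6 were higher in HSC, 6 lower and 11 not called, with a median log2 change of 0.04, and the count of higher genes was 3 without HSC replicate 1 and 3 without HSC replicate 2. Spi1, which encodes PU.1 and acts in myeloid and lymphoid fate, was at 73.9 ± 8.51 CPM for HSC and 166 ± 14.0 CPM for HPC (log2 −1.17 ± 0.11, SE; adjusted p = 8.0e-07, edgeR). Irf8, a factor of myeloid, dendritic and B cells, was at 20.2 ± 9.50 CPM for HSC and 108 ± 25.6 CPM for HPC (log2 −2.42 ± 0.26; adjusted p = 4.3e-06). Id2, an inhibitor of E-box binding factors, was higher, at 62.0 ± 3.63 CPM for HSC and 26.2 ± 4.25 CPM for HPC (log2 1.24 ± 0.13; adjusted p = 3.9e-06). Tcf3, which encodes such a factor and was named after its values were seen, gave a log2 change of −0.11 ± 0.09 and was not called (adjusted p = 0.38).

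Genes of lymphoid progenitors and lymphoid priming were mostly lower in HSC, the direction of Dntt and the Rag genes. This list, like the others, was chosen with earlier results of these data known, so its counts are a description only. Of 20, 19 were tested, 17 were lower, 2 were not called and 0 were higher, with a median log2 change of −1.84. The same fit gave 0 higher at an unadjusted p under 0.05, and DESeq2 and voom with quality weights also called 0 higher. Flt3, a cytokine receptor of lymphoid-primed progenitors, was at 20.9 ± 3.27 CPM for HSC and 744 ± 75.3 CPM for HPC (log2 −5.15 ± 0.14, SE; adjusted p = 1.6e-11, edgeR). Satb1, a chromatin organiser of lymphoid cells, was at 19.0 ± 1.76 CPM for HSC and 274 ± 4.39 CPM for HPC (log2 −3.85 ± 0.10; adjusted p = 1.6e-11), and Wfdc17 gave −5.47 ± 0.19 (1.1e-10). Il7r, the receptor chain that early B cells need for growth, named after its values were seen, was at 5.50 ± 1.24 CPM for HSC and 20.8 ± 2.21 CPM for HPC (log2 −1.92 ± 0.20; adjusted p = 2.9e-06).

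Signalling genes downstream of the pre-B cell and B cell receptors were mostly lower in HSC, unlike Cd79a. Of 20, 19 were tested, 5 were higher, 11 lower and 3 not called, with a median log2 change of −0.40. Syk, the kinase that docks on phosphorylated CD79A and CD79B, was at 68.9 ± 9.46 CPM for HSC and 192 ± 30.7 CPM for HPC (log2 −1.48 ± 0.13, SE; adjusted p = 6.2e-07, edgeR). Cd72, a B cell surface lectin, gave −1.62 ± 0.12 (adjusted p = 7.5e-08) and Btk, a kinase further down, −0.84 ± 0.09 (6.1e-06). Among the 5 that were higher were Cd81, Bank1, Prkcb and Dok3, named after their values were seen.

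**Figure D5:**
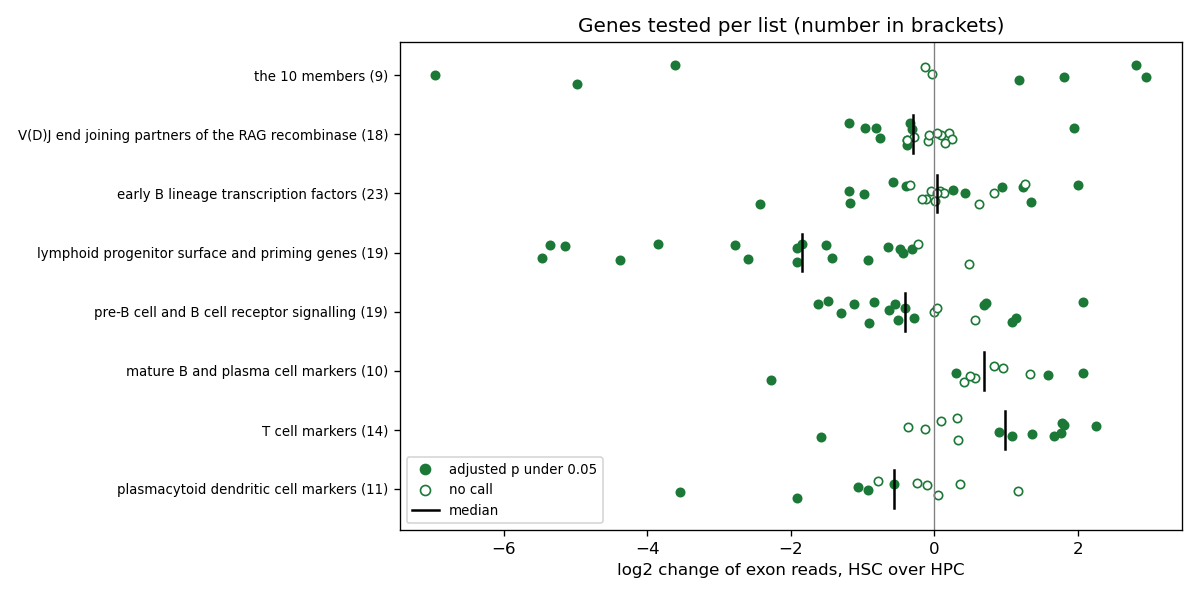
Log2 change, HSC over HPC, of exon reads for every tested gene of each list (points, filled where the adjusted p was under 0.05), with a bar at each list's median and none for the 10 genes. The lymphoid progenitor genes lie mostly left of 0 with a median of −1.84, the T cell markers mostly right of it with 0.99, and the 10 genes spread from −6.95 to 2.96.

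Markers of lineage-committed cells were read beside the 10 genes. Of 16 markers of mature B and plasma cells, 10 were tested, 3 were higher in HSC, Cr2 and Xbp1 among them, 1 was lower (Sdc1) and 6 were not called, with a median log2 change of 0.70. Called markers were thus 4 of 10, close to the 37.1% over all genes tested, and they went both ways. Without HPC replicate 1 the count of higher markers was 1. Their summed level was 332 to 456 CPM in HSC and 302 to 433 CPM in HPC, most of it Xbp1, a factor made in many cells, at 285 ± 32.6 CPM for HSC and 231 ± 16.5 CPM for HPC. Cd22, not tested and also in the signalling list, had 48 exon reads in HSC, nearly all of them in replicate 1, and 1 in HPC. The 5 immunoglobulin constant genes of the list (Ighm, Ighd, Igkc, Iglc1 and Iglc2) were listed at 0 exon reads. These rows carry no annotated exons, and of 808 receptor segment rows 9 held any gene read, so the 0 values give no information on B cells.

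Of 16 T cell markers, 14 were tested, 8 were higher in HSC, 1 was lower (Lck) and 5 were not called, with a median log2 change of 0.99. The count of higher markers was 5 without HSC replicate 2 and 5 without HPC replicate 1. Their summed level was 194 to 200 CPM in HSC and 141 to 183 CPM in HPC. It was led in HSC by Gata3, at 87.4 ± 9.73 CPM for HSC and 27.6 ± 6.54 CPM for HPC. In HPC it was led by Lck, at 29.4 ± 2.61 CPM for HSC and 87.5 ± 7.80 CPM for HPC. Cd3e, a chain of the T cell receptor complex, was at 13.4 ± 2.05 CPM for HSC and 3.82 ± 0.689 CPM for HPC (log2 1.81 ± 0.22, SE; adjusted p = 1.4e-05, edgeR). Gata3, a factor of T cell fate, gave 1.66 ± 0.15 (adjusted p = 1.0e-06) and Lck, a T cell kinase, −1.57 ± 0.11 (8.3e-08). The receptor constant genes Trac and Trbc1 were listed at 0, on rows with no annotated exons.

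Plasmacytoid dendritic cells, which can also carry Dntt and Rag transcripts, were read through 12 markers, of which Ccr9 and Ly6d were also among the lymphoid progenitor genes. Of the 11 tested, 5 were lower in HSC, 6 were not called and 0 were higher (edgeR, 2 higher at an unadjusted p under 0.05; DESeq2 called 1 higher and voom with quality weights 0), with a median log2 change of −0.56. The count of higher markers was 1 without HPC replicate 2, HPC replicate 4 or HSC replicate 2. Their summed level was 446 to 508 CPM in HSC and 685 to 733 CPM in HPC, led by Tcf4 at 213 ± 7.45 CPM for HSC and 315 ± 19.6 CPM for HPC. Cox6a2 gave a log2 change of −3.54 ± 0.26 (SE; adjusted p = 1.1e-07, edgeR), Ccr9, a chemokine receptor, −1.92 ± 0.21 (6.1e-06) and Runx2 −1.06 ± 0.11 (4.2e-06). The 6 markers not called, named after their values were seen, went both ways. Siglech was at 4.45 ± 1.66 CPM for HSC and 4.31 ± 1.32 CPM for HPC (log2 0.05 ± 0.35, SE; adjusted p = 0.93, edgeR). Log2 changes were 1.17 for Klk1, 0.36 for Smim5, −0.10 for Pacsin1, −0.24 for Bst2 and −0.79 for Ly6c2. The part that cells of the B, T and plasmacytoid dendritic lineages have in the levels of the 10 genes was not tested.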

How the data were processed

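Bulk RNA-seq libraries of 2 sorted mouse bone marrow fractions were compared, with 4 HSC and 4 HPC libraries as titled. ISOGEN extraction, SMARTer Pico cDNA, 18 PCR cycles and Nextera XT were used, per the labels' protocols. The submitters' processing notes name build mm10. The aligner, counter and strand setting were not given in the sources used here. Per the file headers, the counts give unnormalised numbers of reads for each gene row, in exons, in introns, in the gene and across exon junctions. The deposited RPKM is scaled by the authors to exon length and mapped reads, and served only to order genes by level. The deposited TPM was not used.

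Reads were summed per NCBI gene ID. Total exon reads and total intron reads were each tested over all gene IDs with edgeR 4.0.16 in R 4.3.3 (filterByExpr, TMM, quasi-likelihood F test, no covariate, Benjamini-Hochberg adjustment, threshold 0.05). The exon change was set against the intron change as an interaction, with the library as a term. Of the genes tested on intron reads, 2449 had no annotated exons, and their reads all count as intron reads. Levels are mean ± SD over 4 libraries, and changes are HSC over HPC. The procedure was tested on simulated data with the spread set near that of the exon reads (biological coefficient of variation 18.3%). The intron reads varied more (30.4%), so that test does not cover the intron and interaction fits at their own spread. Pax5 was tested by an exact permutation test (scipy 1.17.1).

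The members and lists were chosen with earlier results of these data known. Named beside the members were the near copy of Vpreb1, the nearest gene with exon reads on each side of a member, up to 3 called genes per list with the smallest adjusted p and a mean of at least 5 CPM, the most abundant gene of each list of another cell type, and the sort markers. Genes outside this rule are said to be so, and some of the genes taken by it or called are not reported here. Alternatives were scaling by RLE or by upper quartile, no filter on counts, at least 50 reads in 4 libraries, DESeq2 1.42.0, voom with quality weights (limma 3.58.1), uniquely placed reads, gene reads, main-assembly rows only, the replicate number as a block, each library left out, and both libraries numbered 4 left out. An intron fit on gene IDs with exons only was added after seeing the data.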

Additional observations from a re-analysis of the deposited data

Results flagged for a closer look

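Exon and intron CPM of the 10 genes in each fraction were screened where any read was present, which gave 39 sets of 4 libraries. In 4 of these sets, 1 library stood apart from the other 3. The screen's chance rate of about 1 in 20 holds for continuous, normally distributed values, not for counts near 0. A set with reads in only 1 library is always flagged, as for Pax5 and Rag1 below. The 4 flags therefore cannot be set against that rate. Pax5 exon reads in HPC came from replicate 3 alone, at 0.669 CPM, with 0 in the other 3 HPC libraries. Rag1 intron reads in HSC came from replicate 2 alone, at 0.304 CPM, and HSC replicate 2 also held 16 of the 20 Rag1 exon reads of that fraction. Vpreb3 exon reads in HPC replicate 2 stood at 0.546 CPM, against 0.276 to 0.317 CPM in the other 3, and the Vpreb3 call did not depend on any library. Igll1 intron reads in HSC replicate 3 stood at 6.42 CPM, against 4.04 to 4.42 CPM in the other 3.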

How the results depend on the processing

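The exon calls of Dntt, Rag1, Rag2, Igll1, Vpreb3 and Cd79a held under every alternative that tested them, and Dntt's intron call likewise. Vpreb1 passed or missed the threshold by little, with adjusted p-values of 0.016 to 0.12 over 18 alternatives, 10 of which lost the call. With at least 50 reads in 4 libraries required, 2 of the 10 genes were called higher and 2 lower, since Vpreb1, Vpreb3 and Rag1 were then not tested. Leaving out 1 library gave 3 to 4 genes called higher on exon reads, 1 to 2 called on intron reads, and 117 to 157 genes with a called difference between exon and intron change, against 210 with all libraries. For the lists, the same gave 4 to 8 lower recombinase partners, 3 to 6 higher early B factors and 1 to 3 higher mature B markers. It also gave 5 to 7 higher T cell markers and 0 to 1 higher plasmacytoid markers.

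Signs turned only for changes that were not called. Ebf1 exon reads gave 0.012 with voom, 0.22 without HPC replicate 1 and 0.096 without HSC replicate 4 (−0.37 to 0.22 over the 8 omissions), and its intron reads gave 0.047 with voom, 0.096 and 0.15 in the same order (−0.25 to 0.15). Cd79b exon reads gave 0.047 with upper quartile scaling and 0.035 without HSC replicate 3 (−0.10 to 0.035). Cd79a intron reads gave −0.11 with voom, with the replicate block and without HSC replicate 3 (−0.11 to 0.58). The exon minus intron difference of Vpreb1 was 0.095 without HPC replicate 3 and 0.19 without HPC replicate 4 (−0.83 to 0.19), and that of Ebf1 −0.25 without HPC replicate 3 and −0.017 without HSC replicate 3 (−0.25 to 0.18). The cause was not tested.

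Same-numbered libraries correlated at −0.01, −0.14, 0.14 and 0.22 in their deviations from the fraction means over exon reads. Libraries with different numbers correlated at −0.29 to 0.12. These values do not settle whether the numbers pair samples. The numbers are not stated to do so and were not taken to do so. With the replicate block, 5036 genes were called on exon reads against 4733, 2818 on intron reads against 3056, and Vpreb1 was not called (adjusted p = 0.087).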
